A study of Mus musculus with 2 samples.

Results

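Broad accessible regions of at least 1000 bp were described in G1E-ER4 cells, a mouse erythroid line of strain C57BL/6J derived from Gata1-null cells, in which an added GATA1 joined to the hormone-binding part of the estrogen receptor works only when estradiol is present. All cells had received 10 nM 17beta-estradiol for 24 h, and ATAC-seq, in which a transposase cuts and tags open DNA, was run on 50000 cells for each of 2 biological replicates. There was no untreated group, so no value below is a response to estradiol or to GATA1. Overlapping peaks of the authors' conservative list, which holds peaks reproducible between both replicates, were merged into 20080 regions. Of these, 929 were at least 1000 bp wide (4.63% of regions), and the other 19151 are called narrower regions here. The broad regions were chosen by their width in this list, so their widths, number, summits and signal are given as a description.

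An accessible region is a stretch of DNA with few or no nucleosomes, where transcription factors and polymerases can bind. Promoters in mammals often lie in CpG islands, stretches rich in the CpG dinucleotide, and closely spaced genes on opposite strands can share a single accessible stretch. In red cell precursors GATA1 binds the sequence WGATAR, often beside an E-box bound by TAL1, in introns and between genes as well as at promoters. Small nuclear RNAs and tRNAs are made from short genes that are often transcribed at a high rate and often occur in many near-identical copies.

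Sequences are from the RefSeq GRCm38 assembly, read on the plus strand, and each window is centred on a summit, the point of largest signal of a peak. In the first set, capitals mark GATA motifs on either strand, which are AGATAA and TGATAA, and with the last base changed, AGATAG and TGATAG. Myo3a, Peg3 and Setd5 are among the widest broad regions outside promoters with such a motif beside a summit. Cbfa2t3 and Bcl11a are red cell genes, and these were chosen after their values were seen.
Myo3a chr2:22587721-22587921: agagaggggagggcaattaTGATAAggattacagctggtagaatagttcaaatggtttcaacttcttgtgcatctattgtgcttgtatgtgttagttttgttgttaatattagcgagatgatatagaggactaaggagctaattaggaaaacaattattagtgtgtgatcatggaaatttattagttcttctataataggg
Peg3 chr7:6727466-6727666: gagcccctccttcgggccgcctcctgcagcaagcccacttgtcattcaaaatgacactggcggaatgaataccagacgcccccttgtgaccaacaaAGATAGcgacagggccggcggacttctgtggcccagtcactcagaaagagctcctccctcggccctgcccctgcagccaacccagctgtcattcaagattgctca
Setd5 chr6:113076034-113076234: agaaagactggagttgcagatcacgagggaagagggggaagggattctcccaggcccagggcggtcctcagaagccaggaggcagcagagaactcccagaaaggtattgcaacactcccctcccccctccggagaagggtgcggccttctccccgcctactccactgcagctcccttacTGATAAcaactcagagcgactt
Cbfa2t3 chr8:122719715-122719915: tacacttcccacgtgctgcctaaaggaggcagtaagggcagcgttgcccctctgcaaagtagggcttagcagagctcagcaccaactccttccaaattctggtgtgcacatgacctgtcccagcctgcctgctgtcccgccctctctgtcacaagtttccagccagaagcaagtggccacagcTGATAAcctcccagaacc
Bcl11a chr11:24129859-24130059: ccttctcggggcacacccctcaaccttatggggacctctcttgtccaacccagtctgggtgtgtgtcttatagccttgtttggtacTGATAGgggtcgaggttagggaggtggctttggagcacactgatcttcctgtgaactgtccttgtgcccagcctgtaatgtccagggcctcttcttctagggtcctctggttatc

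The second set shows the leading summit, the summit of largest signal, of each region. The regions are the widest promoter regions with starts of different genes on both strands within 500 bp of that summit. They were chosen after the values were seen, and capitals mark CpG dinucleotides. There are 12 CpG in the 101 bp window of Hdlbp and Sept2 and 8 in that of Trip12 and Fbxo36.
Hdlbp and Sept2 chr1:93478419-93478519: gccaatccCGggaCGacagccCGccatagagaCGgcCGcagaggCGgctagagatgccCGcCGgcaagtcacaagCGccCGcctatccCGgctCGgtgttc
Trip12 and Fbxo36 chr1:84839473-84839573: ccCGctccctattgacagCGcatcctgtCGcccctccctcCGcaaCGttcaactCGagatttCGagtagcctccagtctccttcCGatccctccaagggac

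The third sequence spans 120 to 21 bp upstream of the U3 small nucleolar RNA genes Rnu3b1, Rnu3b3 and Rnu3b4, each of which lay in a broad region inside the gene Tex14 on chromosome 11. Capitals mark the bases that are the same in all 3 copies, which was the case for 100 of 100 bases. The copy printed is that of Rnu3b1, and the windows of the others start at position 87448507 and at position 87462166.
Rnu3b1 chr11:87443117-87443216: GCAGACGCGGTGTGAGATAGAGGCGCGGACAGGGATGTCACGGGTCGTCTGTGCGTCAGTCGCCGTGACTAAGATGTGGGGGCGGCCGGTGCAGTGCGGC

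The broad regions had a median width of 1105 bp, with quartiles of 1042 and 1203 bp. Most lay close to the threshold, since only 26 reached 1500 bp and 3 reached 2000 bp. They covered 1065 kb, or 9.85% of all accessible bases, and held 3051 summits, or 10.4% of all summits. At the threshold, 8 regions measured exactly 1000 bp and 9 measured 999 bp. Just inside were an intron of Hs6st1, with 2 summits and a signal of 9.98, an exon region nearest to Amz2, with 4 summits and a signal of 11.4, and the promoter of Tmtc4, with 3 summits and a signal of 17.3. Just outside were the promoters of 1810043G02Rik, Odc1 and Sypl, with 3, 4 and 2 summits and signals of 17.3, 10.3 and 19.0. Members on both sides of the threshold therefore overlapped in summits and in signal, which is the authors' value per peak and has no stated scale.

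Fewer regions were this wide in each library alone. The list of replicate 1 alone held 382 regions of at least 1000 bp among 14012, and that of replicate 2 held 437 among 15564 (409.5 ± 38.9, SD, n = 2). The conservative list thus held more than either replicate. Here and below, values of a single replicate come from its own list, thresholded by irreproducible discovery rate (IDR). Read depth was unknown, and its part in the widths was not tested. The labels call the samples biological replicates and say no more, so their spread may be partly technical.

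Broad regions were mostly promoters. The leading summit lay within 1 kb of the start of a protein-coding transcript in 719 of 929 broad regions (77.4%), against 8778 of 19151 narrower ones (45.8%). The difference was 31.6 percentage points, with a 95% Newcombe interval of 28.7 to 34.2. This interval and all others for shares cover counting error only, since regions of the same libraries are not replicates. In the lists of single replicates the promoter share was 78.2 ± 0.864% in broad and 56.6 ± 2.35% in narrower regions (SD, n = 2), so the difference between width classes was larger than the spread between replicates. Introns held 90 broad regions (9.69% against 29.9% of narrower ones), intergenic DNA held 92 (9.90% against 19.4%) and exons held 28 (3.01% against 4.82%). When the starts of all transcripts were used, noncoding RNAs included, 52 of the 210 broad regions outside promoters became promoters as well. The same count for narrower regions is not given here, so this number does not compare the width classes.

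**Figure D1:**
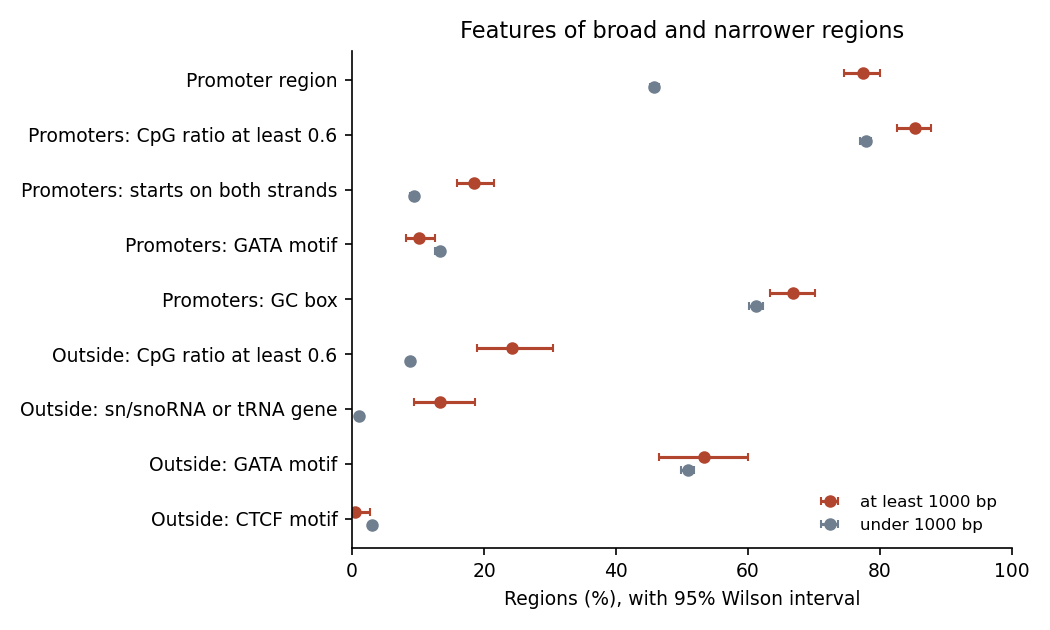
Share of regions with each feature, in percent, with 95% Wilson intervals, for regions of at least 1000 bp (red) and narrower regions (grey). Promoter share was 77.4% against 45.8%, starts on both strands 18.5% against 9.32%, and small RNA or tRNA genes outside promoters 13.3% against 1.08%, while the GATA shares outside promoters overlap.

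Nearly all broad regions held several summits. Among broad promoter regions, 321 had 3 summits, 232 had 4 and 54 had 5, and 610 of 719 (84.8%) had 3 or more, against 9.80% of narrower promoter regions. Outside promoters, 161 of 210 (76.7%) had 3 or more, against 2.64%. Neighbouring summits in broad regions lay a median of 302 bp apart (quartiles 247 and 383 bp), and those in narrower regions 281 bp. A single summit was found in 8 broad regions, of which the exon region of Sf3b5, a splicing factor subunit, had the largest signal of all broad regions at 22.7. It measured just above 1000 bp in the conservative list, 702 bp in replicate 1 and 772 bp in replicate 2. Summits and width come from the same peak calls, so these counts carry no test. In every broad region the looser replicated list gave no additional summit, but it comes from the same 2 libraries and is no separate check.

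**Figure D2:**
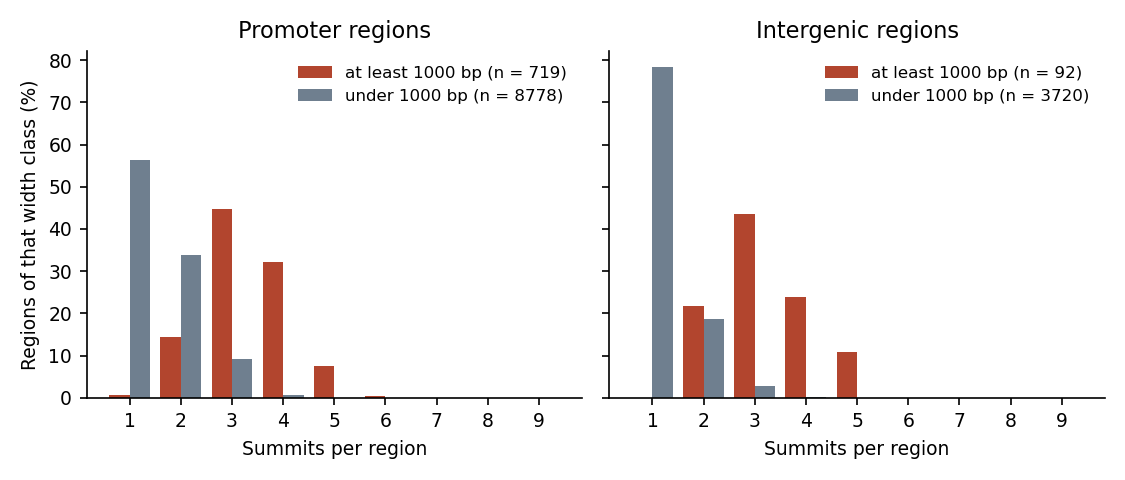
Percent of regions by number of summits, for promoters (left) and intergenic DNA (right), in regions of at least 1000 bp (red) and narrower ones (grey). Broad regions peak at 3 summits in both classes, and 1 summit is the most frequent number in narrower regions.

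Broad promoter regions extended on both sides of the start site. They reached a median of 513 bp upstream and 594 bp downstream of the nearest start, against 305 and 257 bp in narrower promoter regions. The leading summit stood at the same place in both width classes, at a median of -40 bp in broad and -38 bp in narrower regions. It lay within 200 bp of the start in 80.7% and 79.4% of regions, a difference of 1.22 points (-1.94 to 4.07). The signal at the leading summit was not larger in broad promoters, with a median of 12.3 against 13.0, and 13.4% of broad promoters fell in the top of 4 equal groups by promoter signal while 18.4% fell in the lowest group. A summit, the leading one included, lay over 200 bp downstream of the start in 78.4% of broad and 32.3% of narrower promoters, and over 200 bp upstream in 64.1% and 25.3%. Broad regions were chosen by width and hold more summits. The larger extents and these larger shares follow at least in part from that choice and are a description.

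The 10 widest promoter regions ranged from 1568 to 2581 bp and differed in where their summits lay. The widest stood at Ppp2r3d, a regulatory subunit of protein phosphatase 2A, with 5 summits and a signal of 6.16. It was in 2 pieces in replicate 1, of which the widest measured 1856 bp, and in 3 pieces in replicate 2, of which the widest measured 1104 bp. The next, at the cytokine receptor gene Crlf2, lay wholly downstream of the start, from 77 to 2118 bp, and measured 1992 and 2042 bp in the replicates. Both replicates thus gave Crlf2 close to its full width. At Tnfrsf14, a receptor of the tumour necrosis factor family, the 1753 bp region measured only 564 bp in replicate 1 but 1735 bp in replicate 2. The promoters of Abhd11, a hydrolase gene, and Map2k7, a kinase that activates JNK, kept over 1000 bp in each replicate, with 1554 and 1389 bp for Abhd11 and 1545 and 1566 bp for Map2k7. The remaining ones were at Ggnbp2, Rfxap, whose product serves in transcription of MHC class II genes, Utp3, a ribosome assembly gene, and the gene pairs shown above at Hdlbp and Trip12. Utp3 had the largest signal of the 10, at 14.5. Beyond the widest, 6 summits were also found in the 1320 bp promoter region of the phosphatase gene Ppp5c. It overlapped no region in the list of replicate 1 and lay in 2 pieces in that of replicate 2, the widest of 565 bp. Signals of 22.2 were reached at the promoters of Med30, a Mediator subunit, with 1026 bp, and of Sgo2a, a protector of cohesin, with 1037 bp. In the replicates Med30 measured only 371 and 541 bp, and Sgo2a 665 and 1016 bp.

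**Figure D3:**
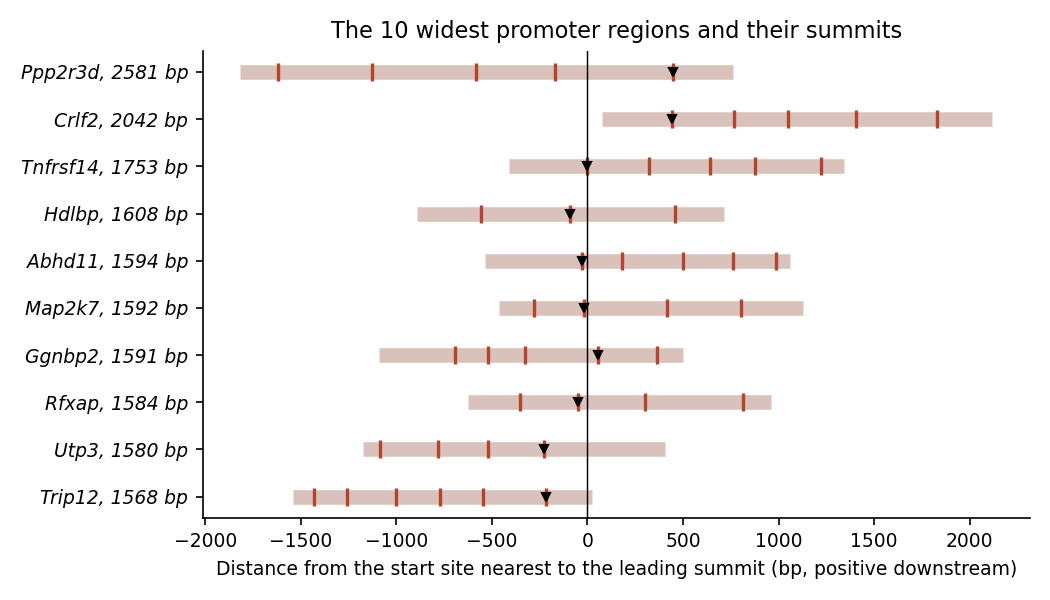
The 10 widest promoter regions (bars) with their summits (red ticks) and leading summit (black triangle), by distance in bp from the start site nearest to the leading summit, positive downstream. The region at Crlf2 runs from 77 to 2118 bp downstream, and that at Trip12 from -1543 to 24 bp.

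Broad promoters more often had starts of different genes on both strands close by. Whether the summit lay between these starts was not part of the measure. Within 500 bp of the leading summit, a window of the same size for every region, starts of different genes on both strands were found at 133 of 719 broad promoters (18.5%) and at 818 of 8778 narrower ones (9.32%). The difference was 9.18 points (6.44 to 12.2). In single replicates the shares were 17.3 ± 0.534% and 10.8 ± 0.137% (SD, n = 2). In the 4 signal groups, from lowest to highest, the difference was 3.92, 7.13, 13.1 and 10.99 points, and only in the lowest group did its interval reach 0 (-0.0225 to 10.1).

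The widest such region, at the gene of the RNA-binding protein Hdlbp and the septin gene Sept2, measured 1608 bp in the conservative list, 1585 bp in replicate 1 and 1571 bp in replicate 2. That of the ubiquitin ligase gene Trip12 and Fbxo36 measured 1545 bp in replicate 1 and was split in replicate 2, where the widest of 2 pieces had 1100 bp. Pairs of large signal were Arl5b with Nsun6 (21.9), and Oip5 with the spindle gene Nusap1 (21.5). In the replicates the region at Arl5b measured 773 and 1047 bp, and that at Oip5 600 and 592 bp. Counted by the whole region and 1 kb around it, 561 broad regions had the start of 1 protein-coding gene, 159 of 2 genes, 3 of 3 genes and 206 of none. This window grows with region width, and the same counts were not made for narrower regions, so they do not compare the width classes. The 3 regions with 3 genes were at Ak6, Rad17 and Taf9, at Myl12a, Myl12b and Myom1, and at Fiz1, Gm44973 and Zfp524. These examples beyond the widest and strongest were chosen after their values were seen.

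Broad promoters were richer in CpG by a small margin. The ratio of observed to expected CpG in the 100 bp on each side of the leading summit was at least 0.6 in 614 of 719 broad promoters (85.4%) and in 77.9% of narrower ones. The difference was 7.54 points (4.64 to 10.1), while the medians, 0.821 and 0.799, lay close. With 500 bp on each side the shares were 86.9% and 75.6%, a difference of 11.3 points (8.51 to 13.8). By signal group the difference for the shorter window was 6.74, 11.4, 4.23 and -0.556 points, and its interval left out 0 only in the second group (7.06 to 14.8). In single replicates the shares were 83.2 ± 2.13% and 79.97 ± 0.724% (SD, n = 2), a gap of 4.24 points in replicate 1 and of 2.25 points in replicate 2. The profile of CpG density shows that the width classes differed mostly upstream, with 4.07 against 3.28 CpG per 100 bp at 450 bp upstream and 6.55 against 6.09 at 450 bp downstream.

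**Figure D4:**
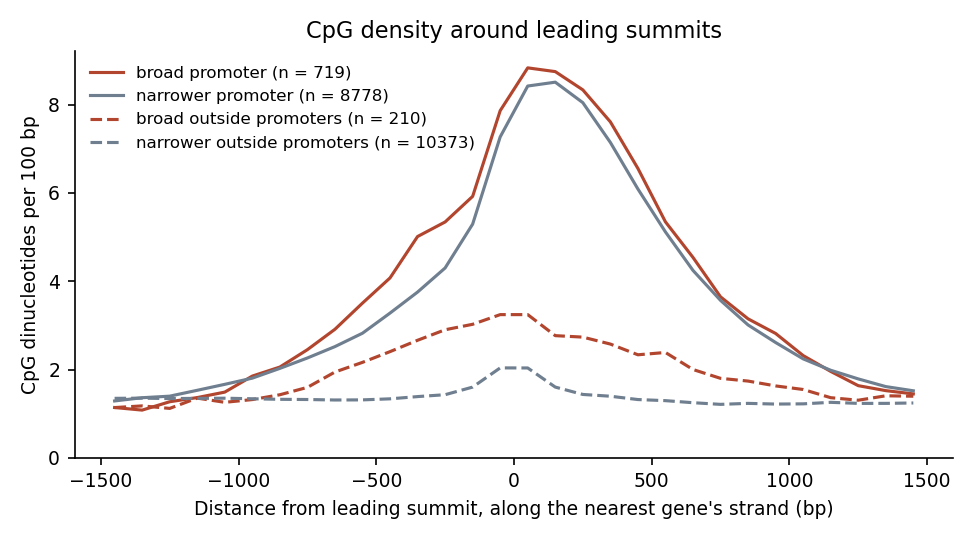
Mean CpG dinucleotides per 100 bp, in 100 bp bins, against the distance from the leading summit in bp along the strand of the nearest gene, for broad (red) and narrower (grey) regions at promoters (solid) and outside (dashed). At 50 bp downstream of the summit the means were 8.83 and 8.42 at promoters, and 3.24 and 2.03 outside.

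At promoters, 13 motifs were searched on both strands of the same short window. The GC box (GGGCGG), bound by SP and KLF factors, was in 66.9% of broad and 61.2% of narrower promoters, a difference of 5.65 points (1.99 to 9.15). The GATA motif was at the leading summit of 10.2% of broad and 13.3% of narrower promoters, a difference of -3.11 points (-5.24 to -0.586). Within each of the 4 signal groups that interval included 0, and in the highest group the difference was 0.727 points. At any summit, where broad regions offer more windows, the motif was in 40.5% of broad and 19.9% of narrower promoters, and the mean number of matches per kb of region was 0.913 and 0.820. No order of the width classes in GATA motifs therefore held across these measures. AP-1 and NF-E2 motifs (TGACTCA or TGAGTCA) were in 0.834% against 2.48%, a difference of -1.65 points (-2.22 to -0.628). The CACCC motif (CCACACCC or CCCCACCC), bound by KLF factors, was in 9.74% against 12.3%, a difference of -2.60 points (-4.68 to -0.124). Motifs of ETS factors (CCGGAAG), of NRF1 (GCATGCGC) and of YY1 (AAGATGGC) had intervals that included 0, as did the CCAAT box (CCAAT). A match describes letters in the window and is not a site of binding.

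Outside promoters, broad regions more often lay at small RNA genes. A small nuclear or nucleolar RNA gene start or a tRNA gene lay within 500 bp of the leading summit in 28 of 210 broad regions (13.3%), against 1.08% of narrower regions outside promoters. The difference was 12.3 points (8.30 to 17.5). Small nuclear or nucleolar RNA genes accounted for 16 (7.62% against 0.501%) and tRNA genes, of which the RefSeq annotation has 403 on the chromosomes, for 12 (5.71% against 0.578%). In single replicates the shares were 18.04 ± 2.42% and 1.39 ± 0.0523% (SD, n = 2). In each signal group the broad share was higher, by 6.13, 10.6, 19.5 and 10.05 points from lowest to highest. The comparison was chosen after the values were seen. Some of the 28 members hold sequence that is repeated elsewhere on the chromosomes, as named below, so their signals and widths are uncertain.

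The U3 RNA, which guides the first cuts of ribosomal RNA, was encoded in 3 broad regions within introns of Tex14. The region at Rnu3b1 measured 1052 bp in the conservative list, 1018 bp in replicate 1 and 1055 bp in replicate 2, with a signal of 17.2. That at Rnu3b3 measured 1282, 1259 and 1263 bp, and that at Rnu3b4 1102, 1083 and 1091 bp. All 3 were thus found at close to the same width in each replicate. As the upstream sequence printed above is identical in all 3, reads from it cannot be placed at a single copy with certainty, and how the authors treated such reads was not stated in the files read.

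Other members of this group held Rnu2-10, a gene of the U2 RNA of the spliceosome (1258 bp, with 1029 and 1230 bp in the replicates), Snora24 (1136 bp, with 1111 and 1107 bp) and Snord104 (1009 bp, with 576 and 503 bp). The widest, 1673 bp with 1653 and 1190 bp in the replicates, spanned the small nuclear RNA genes Gm24265 and Gm24407 on chromosome 5. Of the tRNA clusters, that of 3 tRNA-Arg genes on chromosome 11 measured 1324 bp, with 1259 and 1295 bp in the replicates. A cluster of tRNA-Asp, tRNA-Gly and tRNA-Leu genes on chromosome 1, of 1333 bp, was in neither replicate's own IDR-thresholded list. It did overlap a region in each replicate's looser list. CpG-rich leading summits were also more frequent outside promoters, with a ratio of at least 0.6 in 24.3% of broad and 8.84% of narrower regions, a difference of 15.4 points (10.1 to 21.7).

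Outside promoters, no order of broad and narrower regions in the GATA motif held across settings. The motif was found at the leading summit of 112 of 210 broad regions (53.3%) and of 50.9% of narrower ones, a difference of 2.46 points (-4.35 to 9.16). The order was opposite in single replicates, where 38.3% and 44.9% of broad regions had the motif, against 53.5% and 52.7% of narrower ones. It was opposite as well under a stricter IDR of 0.01, at 51.04% against 51.8%. With 800 bp as the width, broad regions had the motif more often, at 60.1% of 664 regions against 50.3% of those under 800 bp. When any summit counted, 80% of broad and 54.3% of narrower regions had the motif, but broad regions offer more windows to search. Per kb of region, the median number of GATA matches was 2.38 in broad and 2.53 in narrower regions. The composite of an E-box part and a GATA motif spaced 7 to 9 bp apart was at 19.0% against 14.5% of leading summits, a difference of 4.56 points (-0.228 to 10.4).

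Among the other motifs, the GC box was more frequent in broad regions outside promoters (22.4% against 14.0%, a difference of 8.37 points, 3.22 to 14.5), as was the CCAAT box (30.95% against 23.4%, a difference of 7.57 points, 1.64 to 14.2). The ETS motif was in 5.71% against 3.10% (a difference of 2.61 points, 0.169 to 6.63) and the NRF1 motif in 2.38% against 0.684% (1.70 points, 0.325 to 4.77). The core CTCF motif (AGGGGGCGC or AGGTGGCGC) was found in 1 of 210 broad regions (0.476%) and in 2.99% of narrower ones, a difference of -2.51 points (-3.03 to -0.319). Over all 13 motifs in both classes no correction was made for the number of comparisons.

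Broad regions outside promoters lay at several red cell genes. At 10.1 kb upstream of Slc4a1, the gene of the band 3 anion exchanger, a 1012 bp region measured 992 and 1006 bp in the replicates and held no GATA match. The region upstream of Cbfa2t3, whose product ETO2 is a corepressor in TAL1 complexes, lay 20.7 kb from the start, measured 1184 bp with 1111 and 1188 bp in the replicates, and held 7 GATA matches. An intron of Bcl11a, a repressor of fetal globin genes, held a region of 1107 bp with 890 and 874 bp in the replicates. The gene Mafk, a small MAF partner of NF-E2, was the nearest to a 1410 bp region in an exon of Tmem184a, with 1352 and 1375 bp in the replicates and 7 GATA matches. An intron of Steap3, a reductase of the red cell iron cycle, held a 1337 bp region with 1347 and 1251 bp. Mafk, Cbfa2t3 and Steap3 were thus above 1000 bp in each replicate, and Slc4a1 and Bcl11a were not in both.

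The widest region of all, 2934 bp with 9 summits, lay inside the gene Myo3a on chromosome 2 and had a low signal of 5.23. It measured 2923 bp in replicate 1 and 2917 bp in replicate 2, so the replicates gave nearly the same width. Of its overlapping 31-base words, 53.0% also occur in the mitochondrial genome, and in the window printed above 83.6% do. Mitochondrial DNA is present in many copies per cell and carries no nucleosomes, and the share of reads at Myo3a that came from it was not tested. An exon region nearest to Ccnh, of 1050 bp with a signal of 15.6, was the only other broad region in which at least 10% of words (22.5%) occur in the mitochondrial genome. Among narrower regions 17 of 19151 did so.

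Sequence copies elsewhere on the chromosomes were found in few regions. At least 50% of 31-base words occurred more than once in 16 of 929 broad regions (1.72%, Wilson interval 1.06 to 2.78) and in 1.58% of narrower ones. At promoters the shares were 1.11% and 1.15%, and outside promoters 3.81% (8 of 210, 1.94 to 7.34) and 1.95% (1.70 to 2.23). The 16 include members of the small RNA group, namely the U3 regions at Rnu3b1 and Rnu3b4 and the regions at Gm22634, Gm22317 and Gm25890. At Gm22634 and Gm22317, both nearest to Eapp, 97.2% of words were repeated, and at Gm25890 70.6%. The promoters of Srp54a, Srp54b and Srp54c, copies of a signal recognition particle gene, are also among the 16. So are those of the zinc finger genes Zfp959, Zfp119a and Zfp119b, and a region in the pseudogene Pisd-ps2. The last had the smallest signal of all broad regions, 3.30, over 1468 bp and 6 summits, and measured 1463 and 1081 bp in the replicates. Signals and widths at such copies are uncertain.

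Other wide regions outside promoters lay at Peg3, an imprinted gene expressed from the paternal allele, at Gt(ROSA)26Sor, the noncoding gene of the Rosa26 locus, and in an exon of Flt4, a receptor tyrosine kinase. That in Peg3 measured 1751 bp with 1739 bp in replicate 1, and lay in 2 pieces in replicate 2, of which the widest had 869 bp. The Gt(ROSA)26Sor region, whose nearest protein-coding start is that of Setd5, measured 1663 bp and lay in 2 pieces in each replicate, of which the widest had 1126 and 1118 bp. At Flt4 the 1534 bp region measured 799 and 664 bp. Regions between genes, nearest to Trpm1 (1508 bp, with 1423 and 1477 bp) and Chd2 (1469 bp, with 1161 and 1433 bp), were over 1000 bp in both replicates. In an intron of Mia3 a 1486 bp region overlapped only 245 bp in replicate 1 and no region in replicate 2. An intron of the antisense gene 1700112D23Rik, nearest to Eif5a2, held a region of 1436 bp with 812 and 877 bp.

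Broad regions were assigned to 887 of 21829 protein-coding genes (4.06%), by a start site in or within 1 kb of the region. Of the 9232 genes with any region this was 9.61%. The number rests on both libraries, since the list of replicate 1 alone gave 369 genes and that of replicate 2 gave 420. Of 25 erythroid transcription factors and cofactors only Zfpm1 was among them, the gene of the GATA1 cofactor FOG1, with a promoter region of 1105 bp that measured 1086 and 1089 bp in the replicates. None of 23 red cell membrane genes and none of 9 globin genes had a broad promoter, though 19 and 5 of them had a region of any width. Of 18 heme genes Ppox did, the gene of an enzyme late in heme synthesis, with 1248 bp and 1228 and 786 bp in the replicates. Of 18 genes of erythroid receptors, signaling and survival, Bnip3l, which serves in the clearance of mitochondria, had 1040 bp and Trim10 had 1133 bp. In the replicates Bnip3l measured 859 and 564 bp, the latter the widest of 2 pieces, and Trim10 1123 and 1121 bp. The iron list gave Aco1, an iron regulatory protein, as 1 of 12, with 1048 bp and 1009 and 1034 bp in the replicates. The progenitor list gave Etv6, an ETS family repressor, as 1 of 17, with 1533 bp and 6 summits, but 544 and 1243 bp in the replicates. Outside promoters, a 1251 bp region with 1011 and 1162 bp in the replicates had Cd34, a progenitor surface gene, as nearest start, 37.8 kb away. Each of these lists gave few genes, and their shares were set beside 4.06% as a description.

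Lists of genes of general functions are given beside the same 4.06% of all genes, or 9.61% of genes with a region. None of 18 housekeeping genes had a broad region although all 18 had a region, with a median of 562.5 bp for the widest at each gene against 656 bp over all genes with a region. None of 27 immediate early and stress genes and none of 20 cell cycle genes had one. A 1098 bp region with 997 and 876 bp in the replicates, at the noncoding gene Lockd, had the cell cycle inhibitor gene Cdkn1b as nearest protein-coding start, 8.26 kb away. Of 80 ribosomal protein genes 4 had one (5%), namely Rps29 with 1387 bp, Rpl7 with 1052 bp, Rpl30 with 1031 bp and Rpl35a. Of 67 histone genes Hist4h4 had one (1.49%). Splicing factors gave 3 of 23 (13.0%), which were Srsf7 in a 1463 bp region shared with Ttc39d, Hnrnpa1 in a 1275 bp region shared with Cbx5, and Srsf9 with 1002 bp. Their widths in the replicates were 801 and 1140 bp for Srsf7, 874 and 751 bp for Hnrnpa1, and 330 and 656 bp for Srsf9. The lists of 15 liver, 15 neuron and 15 muscle genes gave none, and 0, 2 and 1 of these genes had any region. Genes named Zfp, which encode zinc finger proteins and were looked at after the values were seen, had a broad region in 36 of 268 genes with a region (13.4%, against 9.61% over all genes with a region). Smaller groups of names looked at in the same way were Ndufa, with 4 of 13 genes (30.8%), Trim, with 6 of 26 (23.1%), and Arl, with 6 of 19 (31.6%). Genes were matched by the start of their names, so the Arl genes include Arl6ip5 and Arl6ip6, which are not members of the ARL family.

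Nearly every broad region was called in both replicates, but fewer were broad in both. An overlap of at least 50% of the shorter region was found for 861 of 929 (92.7%) in replicate 1 and 878 (94.5%) in replicate 2, or 93.6 ± 1.29% (SD, n = 2), against 65.6% and 71.4% of narrower regions. Since both replicates made the conservative list, these shares are a description. By these IDR-thresholded lists, both replicates called 838 broad regions, replicate 1 alone 23, replicate 2 alone 40 and neither 28. Each replicate also has a looser list of its own, and in each of these all 929 broad regions overlapped a region. A region of at least 1000 bp was present in replicate 1 for 351 and in replicate 2 for 401. It was present in both for 214 (23.0%) and in neither for 391 (42.1%). It was present in replicate 1 only for 137 and in replicate 2 only for 187. The 391 regions thus reached 1000 bp in neither replicate's own IDR-thresholded list. In the looser replicated list, made from both replicates, all 929 broad regions lay in a region of at least 1000 bp. Conversely, 31 of the 382 regions of replicate 1 that were this wide, and 36 of the 437 of replicate 2, overlapped no broad region of the conservative list.

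The 214 regions that were broad in both replicates were described apart, since they rest least on the combination of libraries. Promoters were 162 of them (75.7%, Wilson interval 69.5 to 80.96), and 176 (82.2%) had 3 or more summits. Starts on both strands were found at 26 of the 162 promoters (16.05%, 11.2 to 22.5). A CpG ratio of at least 0.6 was found at 132 of the 162 (81.5%, 74.8 to 86.7), an interval that includes the 77.9% of narrower promoters. Of the 52 outside promoters, 16 (30.8%, 19.9 to 44.3) had a small nuclear or nucleolar RNA or tRNA gene. A GATA motif at the leading summit was in 19 of the 52 (36.5%, 24.8 to 50.1), against 50.9% of narrower regions outside promoters.

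**Figure D5:**
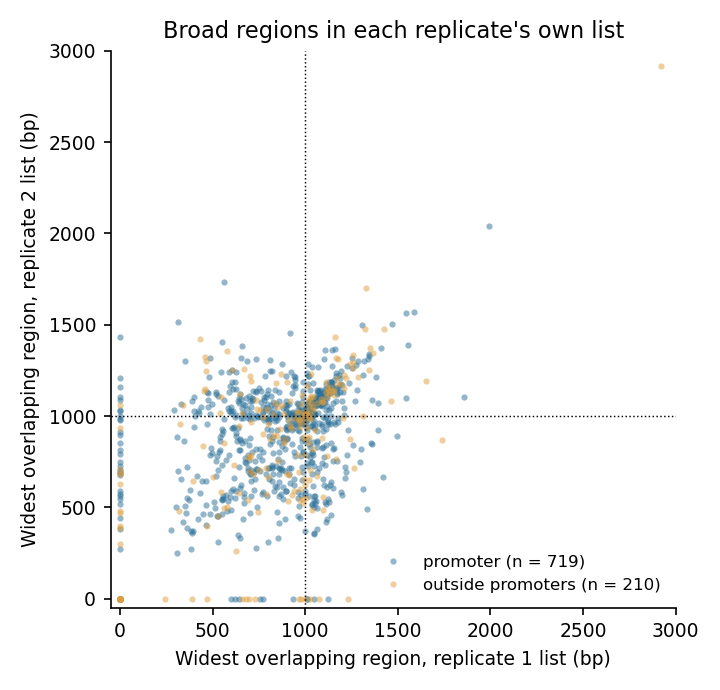
Width in bp of the widest overlapping region in replicate 1 (x axis) and replicate 2 (y axis) for each broad region, at promoters (blue) and outside (orange), with 0 where no region overlapped and dotted lines at 1000 bp. The upper right part holds 214 regions, the lower left 391, and the point at 2923 and 2917 bp is Myo3a.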

How the data were processed

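ATAC-seq peak lists of 2 biological replicates were used, on mm10 (per the labels). Aligner, peak caller and read filters are not given in sources used here. Read depth is unknown. Signal is an enrichment value per peak deposited by the authors, of unstated scale. The score of the deposited ranked list is −log10 of the global IDR, and 0.05 is the authors' threshold. Columns of single replicates in that list carry no sample names and were not used. Overlapping rows of the conservative list (29337) were merged, with rows off the chromosomes left out. Regions were annotated with GENCODE M21 (54361 start sites of protein-coding transcripts) and tRNA genes with RefSeq, both on GRCm38.

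Shares have 95% Wilson intervals and differences 95% Newcombe intervals. No p-value is given, since there is only 1 group and regions are not replicates. Words of 31 bases were counted over the chromosomes and the mitochondrial genome on both strands. Merging, motif search and intervals were tested on simulated data. Analyses used Python 3.11.15, numpy 2.4.6 and pandas 2.3.3.

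The members and the 16 gene lists were chosen with earlier results of these data known. Regions named are the 10 widest at and outside promoters, the 5 with most summits, the 5 of largest signal, the 3 on each side of the threshold, members at list genes (the 3 widest for lists over 60 genes) and the sequences shown. Ahsp was not matched in the annotation. Some members that this rule names are not reported here. Alternatives covered width, merging, peak list, IDR, annotation and single replicates.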

Additional observations from a re-analysis of the deposited data

How the results depend on the processing

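No paired analysis was possible because the samples form 1 group. Across 75 alternatives, 34 values moved by less than the spread between replicates (or, for counts, less than 1.5 times) and 41 moved further. Alternatives for starts on both strands and for small RNA genes, and the share called without each replicate, were chosen after seeing the data. The causes were not tested.

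At 800 bp as the width there were 2795 broad regions and 2567 genes, with 76.2% promoters, 2.68 summits and 16.9% starts on both strands. Outside promoters, 60.1% had GATA, against 50.3% of regions under 800 bp, and 6.02% had small RNA or tRNA genes. At 1500 bp there were 26 regions and 25 genes, with 4.77 summits, a CpG ratio of 0.861, 33.3% GATA (of 6 regions outside promoters), 15% starts on both strands and 16.7% small RNA or tRNA genes.

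With rows up to 150 bp apart joined, summits were 3.27 per region and starts on both strands 17.8%, and the pooled pseudoreplicate list gave 3.29 summits. The looser replicated list gave 75.9% promoters, 3.29 summits and a CpG ratio of 0.824. At IDR 0.01 promoters were 78.5%. Promoters were 73.4% with a 500 bp window and 83.0% with all transcripts. The CpG ratio of whole regions was 0.755, GATA at any summit 80%, and 59.96% of broad regions were covered to at least 80% in a replicate.

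Leaving out each replicate gave 382 to 437 regions, 369 to 420 genes, 77.6 to 78.8% promoters, 3.17 summits per region (3.165 to 3.169), CpG ratios of 0.793 to 0.798, 38.3 to 44.9% GATA, 16.9 to 17.7% starts on both strands, 16.3 to 19.8% small RNA or tRNA genes and 92.7 to 94.5% called. Broad exceeded narrower regions in promoter share, starts on both strands and small RNA or tRNA genes under all alternatives of list, width, merging and IDR, but not in GATA share. These alternatives come from the same libraries and are not independent, and at 1500 bp only 6 broad regions lay outside promoters. Unknown read depth limits every width.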
